A study of Mus musculus with 6 samples.

Results

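Heat shock proteins and chaperonins are the cell's protein-folding machinery, and 80 of the 26789 genes in the deposited table belonged to them. They were taken by their gene symbols and comprised 13 members of the Hsp70 and Hsp110 families, 4 DNAJA, 12 DNAJB and 26 DNAJC proteins, 3 Hsp90 proteins, 8 small heat shock proteins, 2 subunits of the mitochondrial chaperonin, 8 subunits of the cytosolic CCT chaperonin, 2 heat shock transcription factors and 2 proteins that bind Hsp70 or Hsp27 (Hspbp1 and Hspbap1). Role classes were set by symbol too, so Hspb11 counts among the small heat shock proteins by its symbol alone. In total, 73 members averaged 10 or more normalized counts across the 6 libraries and were compared between diets. So were 18007 genes of the whole table. The members below that level were Hspa4l, Dnajb2, Dnajb3, Dnajc14, Dnajc22, Hspb2 and Hspb9, and each of them was listed at 0 in 2 or more libraries. Dnajb8 and Hspa14 were not analysed here.

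The libraries were made from microglia, the brain's own macrophages, taken from the rostral nucleus of the solitary tract (NST) of mouse pups on P15. Controls were C57Bl/6 offspring of dams on standard chow, and E3–E12 diet mice were offspring of dams of the same strain that received a sodium-restricted diet from E3 to E12. By the study's methods each library pooled littermates of 1 litter, with 3 litters in each group, and the cells were sorted with magnetic beads against CD11b after incubation of the tissue with papain at warm temperature. The design text deposited with the data names laser microdissection instead, and the method of isolation is therefore open to doubt.

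Hsp70 proteins bind exposed hydrophobic stretches of unfolded proteins, J-domain proteins (DNAJA, DNAJB and DNAJC) deliver clients and stimulate the Hsp70 ATPase, and Hsp110 proteins exchange the nucleotide. Hsp90 completes the maturation of kinases and receptors, small heat shock proteins hold unfolded proteins without ATP, and the chaperonins enclose a protein in a chamber while it folds. After heat or proteotoxic stress the transcription factor Hsf1 binds heat shock elements, inverted repeats of GAA and TTC, and switches on the inducible members such as Hspa1a. Enzymatic dissociation of tissue is a known trigger of inducible heat shock genes and of immediate early genes in microglia.

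The whole normalized count of a library varied between 9407141 and 17204618, and the table does not give the reads assigned to each gene. Each of the 10 microglia markers tested was above 0 in every library. Their summed level was between 99120 and 488187 in controls and between 97516 and 305622 in E3–E12 diet mice. Control replicate 2 stood apart, with the highest total, 10640 genes listed at 0 (3459 to 7135 in the other libraries), and the lowest summed levels of endothelial (5316), astrocyte (1738), neuron (694) and mural cell (539) markers. In the other libraries those sums were 9250 to 14885, 4723 to 9725, 933 to 1848 and 5311 to 13442. Not every marker followed its sum, since Cldn5 (1207), Pecam1 (3154) and Gad1 (493) were highest in control replicate 2. That library also had the highest summed border macrophage (15769, against 3767 to 6868) and neutrophil (3001, against 389 to 589) markers. Values of a member are given below in the order of control replicates 1, 2 and 3 and then E3–E12 diet replicates 1, 2 and 3, in normalized counts.

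The chaperone signal was carried by few genes. Per kilobase of exon, the most abundant members were Hspa8 (4814 normalized counts per kilobase, mean of 6 libraries), Hsp90ab1 (4684), Hspa1a (2910), Hsp90aa1 (1894) and Hsp90b1 (1307). The 8 members with the largest normalized counts, these 5 with Dnaja1, Hspa5 and Hspa1b, made up between 60.2% and 79.4% of the summed members in a library. All members together took 0.676% to 0.847% of the normalized counts in 5 libraries and 1.31% in E3–E12 diet replicate 2. That library held the highest value of 21 of the 73 members (28.8%, against 14.0% of all genes tested), and control replicate 2 held the highest value of 25 (34.2%, against 26.3%). Reads of members with close copies or overlapping neighbours are uncertain. More than 20% of the 50-base exon windows were shared with other annotated genes in 13 of the 80 members, among them Hspa8 (39.4%, mostly Gm15459), Dnaja4 (42.7%, mostly Wdr61), Dnajb6 (21.0%) and Dnaja1 (20.6%), and 32 members shared none.

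**Figure D1:**
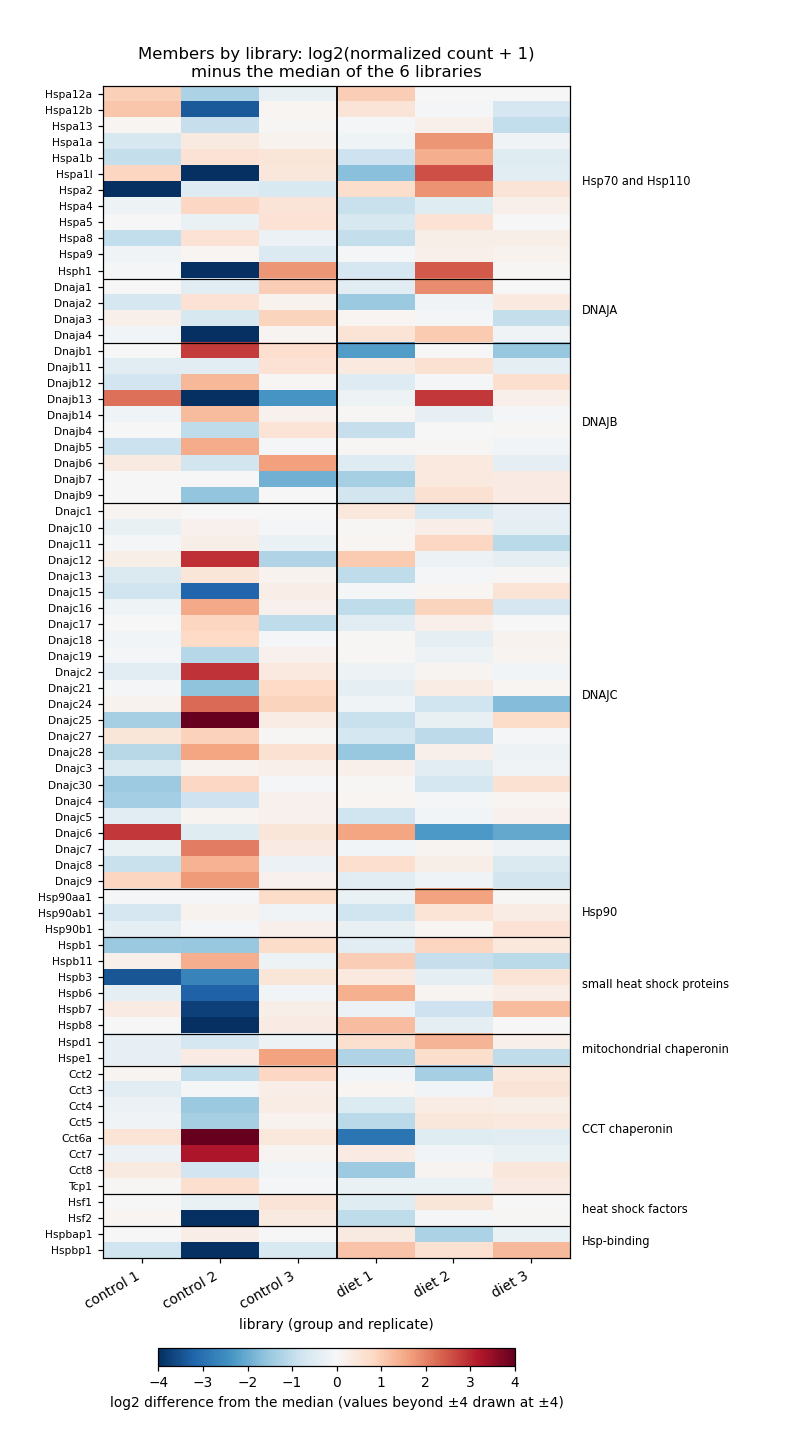
Each row is 1 of the 73 members that passed the filter and each column 1 library, coloured by its log2(normalized count + 1) minus the median of the 6 libraries, with role classes separated by lines. Control replicate 2 holds the darkest blue cells in the small heat shock proteins and the darkest red cells among the DNAJC proteins and Cct6a, and E3–E12 diet replicate 2 is red for Hspa1a, Hspa1b, Dnaja1 and Hsp90aa1.

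No member passed the study's adjusted p threshold of 0.1 in the limma fit used here. The study itself used DESeq2, and its tables list Dnajb1 and Dnajc6 as lower and Hspbp1 as higher under that threshold. With limma on log2(normalized count + 1), two-sided and with Benjamini-Hochberg adjustment, 0 of 73 members and 0 of 18007 genes had an adjusted p under 0.1 (0% of genes tested), and the smallest adjusted p was 0.999 among members and 0.225 among all genes. At an unadjusted p under 0.05 there were 3 members (4.11%), against 327 genes in all (1.82%). Of these Hspbp1 was higher in E3–E12 diet mice (1 member, against 0.95% of all genes), and Dnajc24 and Dnajb1 were lower (2 members, against 0.866%). The median log2 fold change, E3–E12 diet minus control, was -0.01 over the 73 members, 36 of them higher and 37 lower, and 0.09 over all genes tested. Standard errors of the log2 fold changes had a median of 0.75 among members, so a change of this size in a single member was not detectable with 3 libraries in each group. In pooled cells, fewer cells of a type and less RNA per cell cannot be told apart.

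The values of the 2 diets did not overlap in 8 members (11%, against 5.9% of all genes). Hspa2, Hspb6, Hspd1 and Hspbp1 had all E3–E12 diet values above all control values (4 members, against 2.99% of all genes). Dnajc24, Dnajc27, Dnajc9 and Cct6a were lower (4 members, against 2.91%). Cct6a passed the filter only through control replicate 2 (152 normalized counts), with a mean of 57.1 in controls and 3.07 in E3–E12 diet mice. No permutation test is added for these 8, which were singled out by their values. Groups of 3 that do not overlap always give the smallest exact permutation p that the design allows, 0.1 (two-sided). Unadjusted p-values of the limma fit are given with each of the 8 below.

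**Figure D2:**
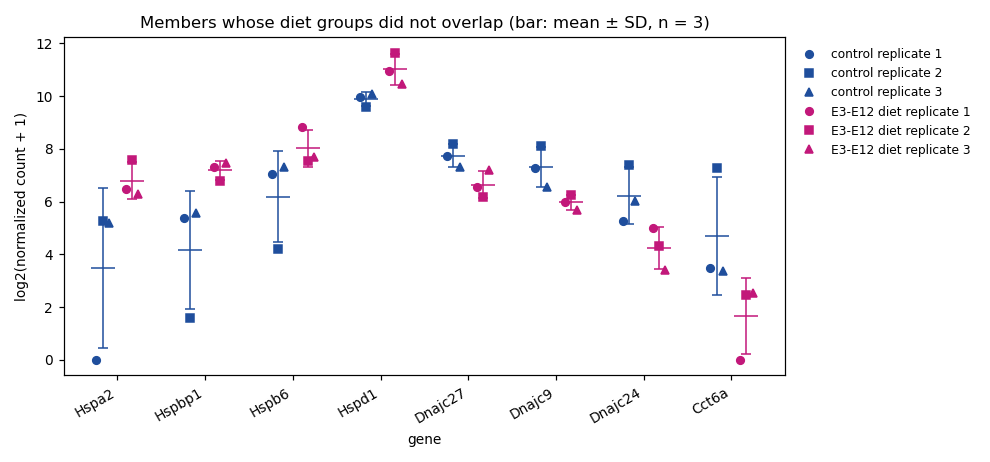
The vertical axis gives log2(normalized count + 1) of the 8 members whose groups did not overlap, with control libraries in blue and E3–E12 diet libraries in magenta, 1 symbol shape per replicate number and bars for the mean ± SD (n = 3). Hspd1, Dnajc27 and Dnajc9 have group SDs between 0.26 and 0.77 on this scale. Hspa2, Hspbp1, Hspb6 and Cct6a each have a library far from the others of its group.

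Among the Hsp70 proteins, the constitutive and the inducible genes of the cytosol did not separate the diets. Hspa8, the constitutive Hsp70, had 10975, 32335 and 18728 normalized counts in controls and 11212, 25364 and 25624 in E3–E12 diet mice (20679 ± 10813 against 20733 ± 8247, SD, n = 3 libraries each). Both replicates 1, which also had the lowest summed microglia markers (99120 and 97516), were lowest. The part of cell composition in the level of Hspa8 was not tested. Between diets, the log2 fold change of Hspa8 was 0.04 (standard error 0.69). Hspa1a, the stress-inducible Hsp70, had 4083, 8110 and 6898 normalized counts against 5582, 21383 and 5751. Its high mean in E3–E12 diet mice (10906 ± 9074 against 6364 ± 2066 in controls, log2 fold change 0.53, standard error 0.75) rested on E3–E12 diet replicate 2, and without that library the log2 fold change was -0.11. Hspa1b, its near-identical neighbour, had 1105, 3180 and 3014 against 1202, 5839 and 1525 (log2 fold change 0.01, standard error 0.85), again highest in E3–E12 diet replicate 2 and at -0.70 without it.

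Hspa1a lies on mouse chromosome 17 at chr17:34969190-34972156 and Hspa1b at chr17:34956436-34959238 (GRCm38, both on the minus strand), and 66.3% and 62.3% of the 50-base windows of their exons occur in other annotated genes, mostly in each other, so reads could be divided between them in either way. The 250 bases before their start sites are shown because they are nearly the same sequence: 247 of 250 bases are identical and both hold GAANNTTC, the pair of units of a heat shock element, at position -104 from the start site. The sequences are from RefSeq (GRCm38.p6, chr17:34972157-34972406 and chr17:34959239-34959488, minus strand, 5′ to 3′), and capitals mark the units of the element.
Hspa1a: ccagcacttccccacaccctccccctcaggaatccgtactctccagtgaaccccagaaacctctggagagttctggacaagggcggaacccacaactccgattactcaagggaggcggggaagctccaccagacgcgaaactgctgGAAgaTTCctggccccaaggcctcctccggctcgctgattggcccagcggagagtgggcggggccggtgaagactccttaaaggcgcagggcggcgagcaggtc
Hspa1b: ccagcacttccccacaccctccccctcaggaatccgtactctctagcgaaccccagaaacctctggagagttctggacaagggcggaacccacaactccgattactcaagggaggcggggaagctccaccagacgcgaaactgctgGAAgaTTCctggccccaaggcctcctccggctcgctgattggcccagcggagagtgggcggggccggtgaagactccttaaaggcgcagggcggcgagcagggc
Beside these shared upstream bases, the ratio of Hspa1a to Hspa1b was 3.70, 2.55 and 2.29 in controls and 4.64, 3.66 and 3.77 in E3–E12 diet mice (exact permutation test, two-sided, p = 0.2), so the pair kept its order in all 6 libraries. Such a pair of units, TTCNNGAA or GAANNTTC on either strand, was found in 20 of the 84 promoters of the 65 members that matched a RefSeq promoter (23.8%), and in 15.1% of all 32851 promoters of the same 300 bases. A run of 3 units, GAANNTTCNNGAA or TTCNNGAANNTTC, stood in 6 member promoters (7.14%, of Dnajb6, Hspd1, Hspe1 and Hsph1) and in 0.603% of all promoters. Some of these are the same bases. The runs of Dnajb6 and Hsph1 were each counted from neighbouring start sites, and Hspd1 and Hspe1 share theirs. These longer runs contain the shorter motif, and a match describes the letters only. Members without a matched promoter, among them Hspa8, Hsp90aa1, Hsp90ab1, Hspa9 and Hsf1, were not searched for any motif.

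The remaining Hsp70 and Hsp110 members had lower levels. Hspa2, known for its part in sperm development, had 0, 37.7 and 35.1 normalized counts in controls and 88.5, 191 and 76.7 in E3–E12 diet mice. Its groups did not overlap, with 24.3 ± 21.1 against 119 ± 62.9, a log2 fold change of 3.30 (standard error 1.48, unadjusted p = 0.063, adjusted p = 0.999 by limma with Benjamini-Hochberg adjustment). Control replicate 1 was listed at 0, and without it the log2 fold change was 1.56. Hspa2 is on chromosome 12 (chr12:76404176-76406938, plus strand), and no 50-base window of it is found in another gene (0%). Hspa4, an Hsp110 relative that exchanges nucleotide on Hsp70, had 1043, 2160 and 1742 against 652, 873 and 1401 (log2 fold change -0.77, standard error 0.62), with overlapping groups. Hsph1, the inducible Hsp110, had 38.7, 0 and 139 against 24.9, 224 and 41.6. Its log2 fold change of 1.83 (standard error 1.89) turned to -0.25 without control replicate 2, where it was listed at 0. Hspa9, the mitochondrial Hsp70, was among the steadiest members, with 542, 628 and 406 against 575, 686 and 665 (log2 fold change 0.31, standard error 0.54). Over the 12 members of these families that were tested, 9 had a positive and 3 a negative log2 fold change and the median log2 fold change was 0.42, which became -0.12 when control replicate 2 was omitted and -0.04 when E3–E12 diet replicate 2 was.

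**Figure D3:**
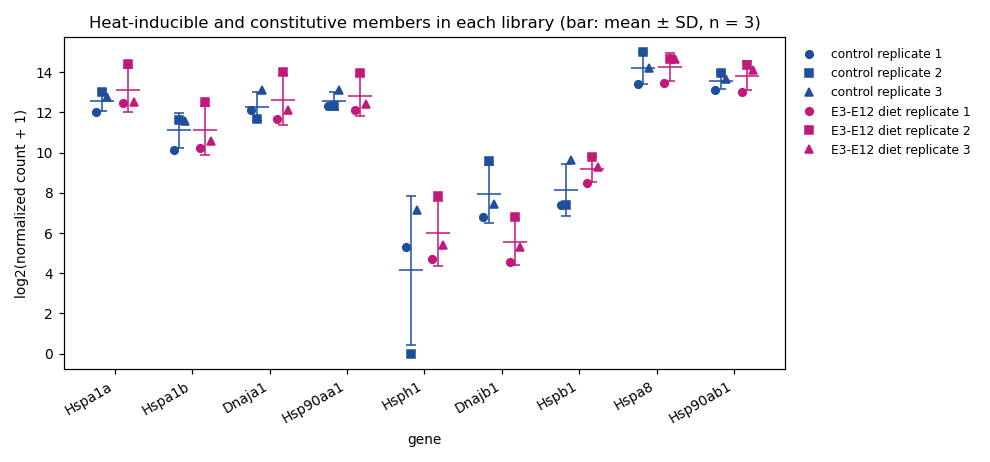
The vertical axis gives log2(normalized count + 1) of 7 heat-inducible members and of the constitutive Hspa8 and Hsp90ab1, with control libraries in blue and E3–E12 diet libraries in magenta, 1 symbol shape per replicate number and bars for the mean ± SD (n = 3). E3–E12 diet replicate 2 (magenta square) is the highest library for Hspa1a, Hspa1b, Dnaja1, Hsp90aa1, Hsph1 and Hspb1, whereas control replicate 2 (blue square) is the highest for Dnajb1.

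The Hsp90 proteins were all slightly higher in E3–E12 diet mice and all within their spread. Hsp90aa1, the inducible cytosolic form, had 5086, 5105 and 8764 normalized counts against 4359, 15956 and 5392, and Hsp90ab1, the constitutive form, had 8921, 15649 and 13060 against 8144, 20823 and 17685. The log2 fold change of Hsp90aa1 was 0.24 (standard error 0.71) and that of Hsp90ab1 0.24 (standard error 0.63), and without E3–E12 diet replicate 2 they were -0.33 and -0.03. The ratio of Hsp90aa1 to Hsp90ab1 was 0.522 ± 0.177 in controls and 0.535 ± 0.231 in E3–E12 diet mice (exact permutation test, two-sided, p = 1). For Hsp90aa1, 47.5% of 50-base windows are shared, mostly with the pseudogene Gm12346, which itself had a mean of 17.2 normalized counts.

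The chaperones of the endoplasmic reticulum differed less between diets than their standard errors. Hspa5 (BiP), the Hsp70 of that compartment, had 3619, 3014 and 5487 normalized counts against 2340, 5425 and 3686, a log2 fold change of -0.12 (standard error 0.61). Hsp90b1 (Grp94), its Hsp90, had 3966, 4805 and 5766 against 4143, 5320 and 7621 (0.20, standard error 0.56), and 15.7% of its exon bases overlap 1810014B01Rik. Their J-domain partners were Dnajb9 (ERdj4), with 800, 264 and 794 against 480, 1217 and 995, and Dnajc3 (p58IPK), with 740, 1214 and 1265 against 1263, 799 and 990. Log2 fold changes of these 2 genes were 0.60 (standard error 0.73) and -0.06 (standard error 0.57), and the signs for Hspa5 and Dnajc3 turned under quantile normalization (0.03 and 0.09). Dnajc10 (ERdj5), a reductase, had the smallest spread of all tested members, with 358, 499 and 428 against 454, 530 and 339, and an SD of 0.26 on the log2 scale over the 6 libraries.

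The promoters of Hspa5, Hsp90b1 and Dnajc3 held the ER stress element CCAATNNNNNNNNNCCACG or its reverse complement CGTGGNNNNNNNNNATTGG, which was present in 3 of 84 member promoters (3.57%) and in 0.119% of all promoters. It is shown for the 2 abundant genes, with its outer letters in capitals: 30 bases around it for Hspa5 (RefSeq, GRCm38.p6, chr2:34772020-34772049, plus strand) and 185 upstream bases for Hsp90b1 (chr10:86705510-86705694, minus strand), which hold it once in each orientation.
Hspa5: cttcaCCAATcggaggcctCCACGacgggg
Hsp90b1: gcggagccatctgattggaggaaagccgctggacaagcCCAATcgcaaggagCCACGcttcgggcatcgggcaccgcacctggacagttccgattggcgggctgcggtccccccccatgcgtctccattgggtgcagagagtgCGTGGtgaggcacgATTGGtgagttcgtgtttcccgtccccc
No member with this element had an unadjusted p under 0.05 in the comparison of diets.

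J-domain proteins formed the largest group and held 2 of the 3 members with an unadjusted p under 0.05. Dnajb1 (Hsp40), the stress-inducible partner of Hspa1a, had 109, 765 and 174 normalized counts in controls and 22.7, 110 and 37.9 in E3–E12 diet mice (349 ± 362 against 56.9 ± 46.7). The log2 fold change was -2.39 (standard error 0.98, unadjusted p = 0.046, adjusted p = 0.999 by limma with Benjamini-Hochberg adjustment). The groups touched, since E3–E12 diet replicate 2 was marginally above control replicate 1, and the log2 fold change was -1.57 without control replicate 2. Hspa1a did not share this direction, and of the inducible members plotted by library Dnajb1 was alone in having its highest value in control replicate 2. Dnajc24, which takes part in diphthamide synthesis, had 37.7, 166 and 63.4 normalized counts against 30.6, 18.9 and 9.47. The log2 fold change was -1.99 (standard error 0.79, unadjusted p = 0.041) and the groups did not overlap, although it was -1.41 without control replicate 2.

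Dnajc9, a histone chaperone, had 152, 273 and 93.7 normalized counts in controls against 62.3, 74.2 and 50.2 in E3–E12 diet mice, with no overlap (173 ± 91.3 against 62.2 ± 12.03, log2 fold change -1.34, standard error 0.63, unadjusted p = 0.073). Dnajc27, a J-domain protein with a Rab-like GTPase domain, had 212, 290 and 158 against 93.3, 72.01 and 145 (log2 fold change -1.10, standard error 0.59, unadjusted p = 0.11). Both were lower in all 3 E3–E12 diet libraries, and their log2 fold changes stayed negative with each library left out, between -1.71 and -0.95 for Dnajc9 and between -1.37 and -0.87 for Dnajc27. Dnajc9 is on chromosome 14 (chr14:20384638-20388910, minus strand) and Dnajc27 on chromosome 12 (chr12:4082583-4110606, plus strand). Dnajc6 (auxilin), which uncoats clathrin vesicles mainly in neurons, had 428, 41.9 and 83.9 against 180, 11.3 and 13.5 (log2 fold change -1.86, standard error 1.34). Its values were highest in replicate 1 of each group, where the summed neuron markers were also highest (1848 and 1841). The other libraries did not keep this order. E3–E12 diet replicate 2 had the lowest Dnajc6 (11.3) with a neuron sum of 1254, and control replicate 2 had 41.9 with the lowest sum (694). The part of neurons in the level of Dnajc6 was not tested. Dnajb1 and Dnajc6, listed as lower, and Hspbp1, listed as higher, are in the study's own tables drawn from these libraries, so their directions here are not independent evidence.

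The other J-domain proteins had broad, overlapping groups. Dnaja1, the cytosolic partner of Hspa8, had 4355, 3248 and 8705 normalized counts against 3292, 16518 and 4485, and its log2 fold change of 0.33 (standard error 0.82) was -0.37 without E3–E12 diet replicate 2. Dnajb6, which prevents aggregation of polyglutamine proteins, had 413, 194 and 990 against 225, 422 and 248 (-0.58, standard error 0.77, and 0.02 without control replicate 3). Dnajc5, the cysteine string protein of secretory vesicles, had 1526, 2271 and 2349 against 1207, 1913 and 2355 (-0.19, standard error 0.58). The widest spreads were those of Dnajb13, a protein of ciliary axonemes, with 411, 0 and 16.5 against 77.2, 636 and 102, and of Dnaja4, with 123, 0 and 140 against 191, 274 and 120. Both were listed at 0 in control replicate 2, and their log2 fold changes of 3.16 (standard error 2.14) and 2.84 (standard error 1.91) became 1.02 and 0.49 without it. The 24 DNAJC proteins tested had 17 members with a negative and 7 with a positive value and a median log2 fold change of -0.24. In control replicate 2 several of them were far above the other libraries, among them Dnajc25 (4726 normalized counts, against 74.9 to 320 elsewhere), Dnajc12 (3204, against 183 to 868) and Dnajc2 (1914, against 192 to 340), which were singled out after their values were seen. Without that library the DNAJC median was -0.07, and without control replicate 1 it was -0.46.

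Outside the 40 members followed by the naming rule, 33 were tested, 13 with a positive and 20 with a negative log2 fold change. These ranged from -1.34 (Dnajc25) to 2.05 (Hspb3), and the smallest unadjusted p among them by limma was 0.10 (Hspb3). Hspb3, a small heat shock protein of muscle, had 0.78, 1.94 and 25.3 normalized counts against 23.7, 13.5 and 26.5, and control replicate 3 lay within the range of the E3–E12 diet libraries.

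**Figure D4:**
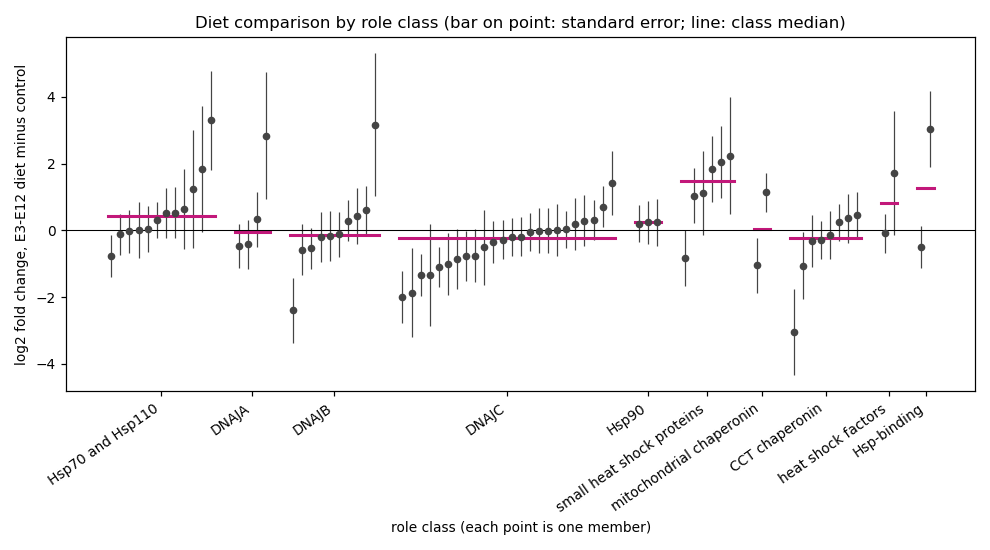
Each point is the log2 fold change (E3–E12 diet minus control) of 1 tested member with its standard error as a vertical bar, ordered by size within its role class, and the magenta line is the class median. The small heat shock proteins have the highest median (1.48) and the DNAJC proteins the lowest (-0.24), and in 51 of the 73 members the log2 fold change is smaller than its standard error.

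Small heat shock proteins had the highest class median, and this rested on 1 control library. Of the 6 tested, 5 had a positive and 1 (Hspb11) a negative value. The median log2 fold change was 1.48, and it was 0.40 without control replicate 2. Hspb11 is in the class by its symbol alone, and the median was not computed without it. Hspb6 (Hsp20), abundant in muscle, had 131, 17.3 and 158 normalized counts in controls and 455, 183 and 206 in E3–E12 diet mice, without overlap (102 ± 74.5 against 282 ± 151, log2 fold change 1.84, standard error 0.98, unadjusted p = 0.11). Without control replicate 2 its log2 fold change was 0.84. Hspb1 (Hsp25 in the mouse), which binds actin and unfolded proteins, had 170, 165 and 793 against 355, 864 and 630 (1.04, standard error 0.83), with overlapping groups. Hspb8 (Hsp22), a partner of the co-chaperone Bag3 in selective autophagy, had 67.5, 0 and 86.0 against 163, 52.8 and 70.3 (2.24, standard error 1.74, and 0.15 without control replicate 2). The mean of log2(normalized count + 1) over the 6 genes was 5.42 ± 1.46 in controls and 6.66 ± 0.414 in E3–E12 diet mice (SD, n = 3). Control replicate 2 was lowest for Hspb6, Hspb7 and Hspb8 and marginally for Hspb1, but highest for Hspb11 (323 normalized counts). It also had the lowest summed levels of the 4 mural and 7 astrocyte markers, cell types in which small heat shock proteins are abundant. Control replicate 1 nearly matched that library for Hspb1 (170 against 165) and was lowest for Hspb3 (0.78), yet had the highest mural sum. The mural sum was 539 to 13442 in controls and 5311 to 12908 in E3–E12 diet mice, and the astrocyte sum 1738 to 9132 and 4723 to 9725. Kcnj8, Gfap and Aldh1l1 were listed at 0 in control replicate 2, whereas the astrocyte marker Slc1a3 was at 1420 there, within the range of the other libraries (549 to 1560), and the part of these cells in the values was not tested.

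Hspb1 is shown because its 250 upstream bases hold the heat shock element pair GAANNTTC at positions -117 and -97 (RefSeq, GRCm38.p6, chr5:135887669-135887918, plus strand, units in capitals), the same pair that stands upstream of Hspa1a and Hspa1b.
Hspb1: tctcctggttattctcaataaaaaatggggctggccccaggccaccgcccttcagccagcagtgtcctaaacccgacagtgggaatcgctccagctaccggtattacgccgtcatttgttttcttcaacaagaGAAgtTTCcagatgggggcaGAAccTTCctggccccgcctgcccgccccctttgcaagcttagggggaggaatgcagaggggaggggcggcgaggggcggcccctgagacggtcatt
Shared sequence is a limit for this gene, since 50.1% of its windows of 50 bases are also found in other genes, mostly the pseudogene Hsp25-ps1, which had a mean of 0.308 normalized counts.

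The subunits of the mitochondrial chaperonin had log2 fold changes of opposite sign. Hspd1 (Hsp60), the barrel, had 993, 770 and 1093 normalized counts in controls and 1954, 3207 and 1419 in E3–E12 diet mice, so the groups were apart (952 ± 165 against 2193 ± 918). The log2 fold change was 1.14 (standard error 0.59, unadjusted p = 0.098, adjusted p = 0.999 by limma with Benjamini-Hochberg adjustment), and leaving out 1 library at a time kept it between 0.82 and 1.41. Hspe1 (Hsp10), the lid of the same chamber, had 98.2, 154 and 376 against 53.3, 201 and 59.9 (210 ± 147 against 105 ± 83.5, log2 fold change -1.04, standard error 0.82). Its groups overlapped, and control replicate 3 and E3–E12 diet replicate 2 were the highest of their groups. Within a library, the ratio of Hspd1 to Hspe1 was 10.1, 4.99 and 2.90 in controls and 36.6, 15.9 and 23.7 in E3–E12 diet mice (6.004 ± 3.71 against 25.4 ± 10.5). The log2 difference of the ratio was 2.19. The ratio was chosen after the values were seen and is given as a description.

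Hspd1 (chr1:55077835-55088243, minus strand) and Hspe1 (chr1:55088132-55091307, plus strand) are divergent neighbours that share 1 promoter region. The 30 bases below are shown because both forms of the 3-unit run stand there for both genes, overlapping as 1 longer run of alternating units. They are from RefSeq (GRCm38.p6, chr1:55088053-55088082, plus strand, units in capitals) and begin upstream of the Hspe1 start site at 55088148 and of the Hspd1 start site at 55087932. Another Hspd1 start site, at 55088243, lies beyond them.
Hspd1-Hspe1: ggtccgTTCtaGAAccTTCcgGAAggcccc
Processed copies limit both values, since 42.1% of the 50-base windows of Hspd1 and 22.8% of those of Hspe1 occur in other annotated genes. The copies Hspd1-ps3 and Hspe1-ps5 had means of 1.72 and 22.6 normalized counts.

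The CCT chaperonin (TRiC), which folds actin and tubulin, has 8 different subunits in equal number in each ring. Of the 8 genes, 3 had a positive and 5 a negative log2 fold change, with a median log2 fold change of -0.22 that depended on the libraries, from -0.50 without E3–E12 diet replicate 3 to 0.05 without E3–E12 diet replicate 1, and from -0.09 to 0.0027 with any other library left out. Cct3 was the steadiest, with 322, 414 and 518 normalized counts against 455, 402 and 626, and Tcp1, the alpha subunit, had 827, 1265 and 761 against 663, 658 and 998. Cct3 had a log2 fold change of 0.24 (standard error 0.56) and Tcp1 one of -0.29 (standard error 0.56). Cct7 had 373, 4088 and 472 against 545, 402 and 364, so its log2 fold change of -1.06 (standard error 1.004) came from control replicate 2 and was 0.04 without it. Cct2, Cct4, Cct5 and Cct8 had log2 fold changes of -0.31, 0.47, 0.36 and -0.14, each with a standard error of 0.69 to 0.77 and each changing sign when a library was left out.

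Cct6a had a mean level below that of the other subunits. It had 10.1, 152 and 9.20 normalized counts in controls and 0, 4.49 and 4.73 in E3–E12 diet mice, without overlap (log2 fold change -3.03, standard error 1.29, unadjusted p = 0.053, and -1.75 without control replicate 2). Per kilobase of exon its mean was 8.31 normalized counts, against 71.6 to 171 for the other 7 subunits, which is 8.62 to 20.6 times lower. Most of that mean came from control replicate 2, with 42.0 per kilobase, close to Cct4 there (47.7). The gene passed the filter of 10 normalized counts only through that library. In the other libraries Cct6a had 0 to 2.78 per kilobase. The gene is annotated in GENCODE as a processed transcript (chr5:129786998-129846371, plus strand), and 15.4% of its windows are shared with other genes, mostly Psph. How its reads were assigned cannot be seen in the deposited values.

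**Figure D5:**
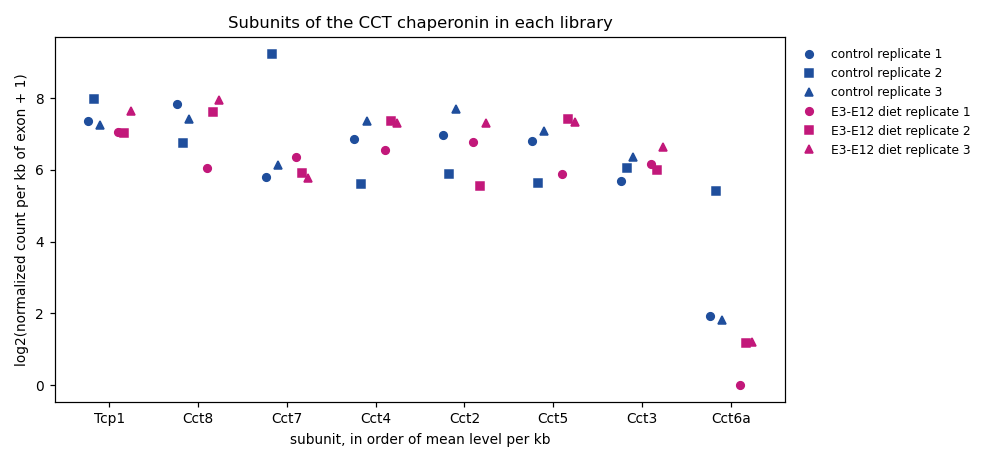
The vertical axis gives log2(normalized count per kilobase of exon + 1) of the 8 CCT subunits in each library, ordered by mean level, with controls in blue, E3–E12 diet mice in magenta and 1 symbol shape per replicate number. Cct6a is the lowest subunit in every library, and control replicate 2 (blue square) is far above the other libraries for Cct7 and Cct6a.

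The regulators of the system differed among themselves. Hsf1, the main heat shock transcription factor, had 612, 513 and 879 normalized counts against 437, 864 and 611 (log2 fold change -0.08, standard error 0.59), with no visible separation. Hsf2, a developmental heat shock factor, had 104, 0 and 127 against 47.6, 94.3 and 102, and its log2 fold change of 1.72 (standard error 1.87) became -0.57 without control replicate 2, where it was listed at 0. Hspbp1, a nucleotide exchange factor that releases and inhibits Hsp70, had 40.3, 1.98 and 46.1 normalized counts in controls and 159, 109 and 177 in E3–E12 diet mice. It was the member with the smallest unadjusted p, with 29.5 ± 23.97 against 148 ± 35.1, a log2 fold change of 3.03 (standard error 1.14, unadjusted p = 0.035, adjusted p = 0.999 by limma with Benjamini-Hochberg adjustment) and no overlap. Without control replicate 2 the log2 fold change was 1.73. Hspbp1 is on chromosome 7 (chr7:4660521-4685068, minus strand), and no 50-base window of it is found in another gene (0%).

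Other genes of the chaperone cycle were followed in a list of 42 co-chaperones and related genes, of which 40 were tested. None passed an adjusted p of 0.1 and none had an unadjusted p under 0.05 (0 in both directions by limma), with 22 higher, 18 lower and a median log2 fold change of 0.17. The groups were apart in 1 gene that was higher and 1 that was lower, 2 of 40 in all, a share near that of all genes (2.99% and 2.91%). The first was Cdc37, which brings kinases to Hsp90, with 402, 172 and 365 normalized counts against 485, 669 and 772 (log2 fold change 1.10, standard error 0.61). The other was Sugt1, an Hsp90 adaptor, with 136, 154 and 188 against 83.9, 133 and 121 (-0.51, standard error 0.55). Bag3, the Hspb8 partner that is itself heat-inducible, had 964, 1876 and 1133 against 1103, 3297 and 1751 (0.55, standard error 0.66) and was highest in E3–E12 diet replicate 2, like Hspa1a.

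A list of 24 immediate early genes, which are known to respond to dissociation together with inducible heat shock genes, was set beside these values. None of the 24 had an unadjusted p under 0.05 (0 in both directions by limma), 7 had a positive and 17 a negative log2 fold change, and the median log2 fold change was -0.31. The groups were apart in 1 gene that was higher, Nfkbia, and 1 that was lower, Zfp36 (2.99% and 2.91% of all genes). The study's tables list Atf3 and Zfp36 as lower and Nfkbia as higher at an adjusted p under 0.1. Over the list, the highest value was in control replicate 2 for 13 of 24 genes, where 26.3% of all genes tested were highest. It was in E3–E12 diet replicate 2 for 6 of 24, where 14.0% of all genes tested were highest. The mean of log2(normalized count + 1) over the list was 11.2, 12.5 and 12.1 in controls and 10.9, 12.2 and 11.7 in E3–E12 diet mice. E3–E12 diet replicate 2, the library highest for Hspa1a, Hspa1b, Dnaja1 and Hsp90aa1, had a list mean below only that of control replicate 2. The part of dissociation in either set was not tested.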

How the data were processed

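The authors deposited 1 table of signal, normalized counts per gene for 6 libraries, listed by Ensembl identifier. The submitters' processing notes name FastQC, STAR, featureCounts, DESeq2 and GRCm38, without stated roles. The table's name mentions surrogate variables, for which no adjustment is described. Labels and methods differ on isolation, kits and read length. Identifiers were matched to GENCODE symbols and positions, and members were taken by symbol. Members, role classes and gene lists were chosen with earlier results of these data known. Members named were fixed by role, or had an unadjusted p under 0.05, no overlap between diets, 1 of the 5 widest or narrowest spreads, or 1 of the 5 highest levels per kilobase. Genes with a mean of at least 10 were compared as log2(normalized count + 1) with limma 3.58.1 (R 4.3.3) and empirical Bayes moderation, checked on simulated data. On this scale the fold change of a low gene depends on the pseudocount: it is pulled towards 0 where all libraries are low and can exceed the ratio of the means where 1 library is listed at 0. Other settings tried were a pseudocount of 10, no filter, quantile normalization, median-ratio rescaling, a replicate block, a mean-variance trend and leaving out each library. Windows were 50 bases long, and promoters covered 250 bases before to 50 after a RefSeq start site. Libraries were separate pooled litters by the study's methods.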

Additional observations from a re-analysis of the deposited data

How the results depend on the processing

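No member and no gene passed an adjusted p of 0.1 under any setting run (0 in each). Quantile normalization gave 491 genes with an unadjusted p under 0.05 in place of 327. With each library left out in turn, that number was between 276 and 551, and members under 0.05 between 0 and 5 (0 to 3 of them higher and 0 to 3 lower). Members without overlap were then between 11 and 17, where fewer libraries make overlap less likely. The share of all genes without overlap was not counted in these settings, so these member counts have no background and are not read further. A pseudocount of 10 gave 2 members higher and 2 lower (5.48% of members, against 1.72% of all genes), and a mean-variance trend 3 higher and 1 lower (5.48%, against 1.49%). The median of the small heat shock proteins was between 0.40 and 2.09 with a library left out. Quantile normalization turned Hspa5 (0.034) and Dnajc3 (0.092), and no other named member turned under a setting that kept all libraries. With a library left out, the log2 fold change of these named members changed sign, and the ranges were -0.11 to 0.86 for Hspa1a, -0.70 to 0.44 for Hspa1b, -0.34 to 0.44 for Hspa8, -0.41 to 0.19 for Hspa5, -0.25 to 3.32 for Hsph1, -0.33 to 0.60 for Hsp90aa1, -0.026 to 0.65 for Hsp90ab1, -0.029 to 0.41 for Hsp90b1, -0.37 to 0.79 for Dnaja1, -1.15 to 0.019 for Dnajb6, -0.31 to 0.099 for Dnajc3, -0.40 to 0.077 for Dnajc5, -0.80 to 0.19 for Cct2, -0.034 to 0.85 for Cct4, -0.079 to 0.86 for Cct5, -1.69 to 0.037 for Cct7, -0.52 to 0.44 for Cct8, -0.33 to 0.16 for Hsf1, -0.57 to 2.93 for Hsf2 and -0.11 to 0.21 for Dnajc10. The cause was not tested.

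With the replicate block, 5 members reached an unadjusted p under 0.05, of which 2 were higher and 3 lower (6.85%, against 2.60% of all genes, 468 in number). Dnajc24 was no longer among them, Hspbp1 and Dnajb1 were, and Hspa2, Dnajc6 and Cct6a were added. Under the block 0 members passed the adjusted threshold, and the smallest adjusted p was 0.980 by limma with Benjamini-Hochberg adjustment. Same-numbered libraries deviated from their group means with correlations across genes of 0.26, 0.035 and 0.14 for replicates 1, 2 and 3, so the numbers were not taken to pair them. A count model was not run, because at most 4.16% of the values of a library were whole multiples of 1 step (tolerance 0.02), so the reads assigned to each gene could not be recovered.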

Other observations

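Of the members below a mean of 10 normalized counts, 3 of those above 20 normalized counts anywhere had their signal in a single library. Hspa4l, an Hsp110 relative, had 40.7 normalized counts in control replicate 3 and was listed at 0 in the other 5 libraries. Dnajb2, a J-domain protein of neurons, had 32.6 and Dnajc22 had 58.4 in E3–E12 diet replicate 2, each listed at 0 in the other 5. Dnajc14 had 22.5 in control replicate 3 and 19.8 in E3–E12 diet replicate 3. No test was made on these members.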
